A study of Mus musculus with 10 samples.

Results

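The genes described here are 9 components of bone morphogenetic protein (BMP) signalling in mouse neural stem cell cultures: the ligands Bmp4 and Bmp7, the receptor Bmpr1a, the inhibitory Smads Smad6 and Smad7, and the target genes Id1, Id2, Id3 and Id4. They were selected by gene symbol, and each symbol matched 1 of the 52632 genes in the deposited count table. Their levels, their covariation across cultures and litters, and their response to a mutation in SMCHD1, a chromatin protein needed for X inactivation, are given below.

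Poly(A) RNA had been sequenced from 10 cultures, each started from the cortex of 1 embryo at day 14.5 of gestation and kept as a monolayer on laminin with EGF and basic FGF. Of these, 2 female and 3 male cultures were E147A/+, and 2 female and 3 male cultures were +/+. E147A is an amino acid change in the SMCHD1 ATPase. The mutant allele also carried GFP, which the +/+ allele lacked, so mutation and tag cannot be told apart. All embryos were F1 animals of a Castaneus (Cast) father and a 129/C57 F1 mother, and all females, mutant or not, also carried one XistdeltaA allele, which fixed the Cast X as the inactive one. The embryos came from 4 litters. Litter 1 held female E147A/+ 1, male E147A/+ 1 and 2 and male +/+ 2. Litter 3 held female +/+ 1 and 2, male E147A/+ 3 and male +/+ 3. Litter 2 was female E147A/+ 2 alone, and litter 4 was male +/+ 1 alone. In females, genotype and litter cannot be told apart, because no litter held females of both genotypes.

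Each library had 20648916 to 44519020 counts in genes. Levels are given as CPM, the usual scaling of a gene's count by the total of its library, normalised by the trimmed mean of M-values (TMM). Smchd1 lay at 94.2 to 128 CPM in the 5 E147A/+ libraries and at 122 to 192 in the 5 +/+ libraries. Its share of counts assigned to the Cast allele was 0.379% and 0.111% in the E147A/+ females and 48.8% and 47.6% in the +/+ females. The median Cast share of genes within 5 Mb of it was 0.115% and 0.0% in the former and 48.2% and 50.9% in the latter, so the whole region had almost no Cast counts in the E147A/+ females and the Smchd1 share does not describe the activity of a Cast copy. The neural stem cell label was checked against 9 markers, whose summed level was 3946 to 6013 CPM in every library, with Sox2 at 178 to 238 and Nes at 546 to 1130. Vim gave 1570 to 3940 CPM of that sum and Fabp7 696 to 1970, while Sox1 stood at 18.0 to 28.0 and Hes5 at 2.66 to 28.9. Summed astrocyte markers came to 1312 to 2480 CPM and oligodendrocyte lineage markers to 1359 to 2043, so markers of these types were present as well. Among 6 microglial markers, Cx3cr1, Csf1r, Aif1, Tmem119 and C1qa stayed under 1 CPM everywhere, and P2ry12 reached 2.77.

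BMP ligands bind type I receptors such as Bmpr1a together with type II receptors, and the activated receptors phosphorylate Smad1, Smad5 and Smad9. These enter the nucleus with Smad4 and switch on target genes, among which the Id genes and the feedback inhibitors Smad6 and Smad7 are the best known. Id proteins lack a DNA-binding region of their own and capture basic helix-loop-helix (bHLH) factors, and in the embryonic cortex they are known for keeping progenitors from differentiating.

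Windows around the RefSeq gene start are printed for Id2, Id3, Id4 and Smad6, the target and feedback genes that had one, to show where Smad motifs lie in them. They run from 250 bases before to 50 bases after that start (RefSeq, GRCm38.p6), and the table used here gave one for 6 of the 9 genes; Id1, Bmp7 and Smad7 had none. Capitals mark GGCGCC, the GC-rich motif of BMP Smads, and GTCT or its reverse complement AGAC, the core Smad motif, both searched on both strands. The lines give Id2 (chr12:25096043-25096342, minus strand), Id3 (chr4:136143572-136143871, plus strand), Id4 (chr13:48260866-48261165, plus strand) and Smad6 (chr9:64022010-64022309, minus strand). The GENCODE genes of Id2 and Id3 start further 5′, at base 25097140 of chromosome 12 and base 136143497 of chromosome 4, so both windows lie inside those gene models. That of Id4 starts further 3′, at base 48261228 of chromosome 13, so its window lies upstream of the gene model. All distances below are to the RefSeq start.
Id2: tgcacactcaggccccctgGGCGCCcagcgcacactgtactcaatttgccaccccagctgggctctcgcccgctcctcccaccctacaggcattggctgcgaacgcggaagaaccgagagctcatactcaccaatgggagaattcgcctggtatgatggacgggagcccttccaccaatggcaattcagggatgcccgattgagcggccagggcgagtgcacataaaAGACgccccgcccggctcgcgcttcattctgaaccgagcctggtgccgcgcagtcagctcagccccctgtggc
Id3: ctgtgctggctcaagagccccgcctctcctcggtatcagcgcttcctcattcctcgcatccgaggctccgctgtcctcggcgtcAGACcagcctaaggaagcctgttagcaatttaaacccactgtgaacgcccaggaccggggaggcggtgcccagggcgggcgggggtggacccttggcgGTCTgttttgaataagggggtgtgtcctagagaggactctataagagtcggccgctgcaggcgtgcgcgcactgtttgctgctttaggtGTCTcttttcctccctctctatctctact
Id4: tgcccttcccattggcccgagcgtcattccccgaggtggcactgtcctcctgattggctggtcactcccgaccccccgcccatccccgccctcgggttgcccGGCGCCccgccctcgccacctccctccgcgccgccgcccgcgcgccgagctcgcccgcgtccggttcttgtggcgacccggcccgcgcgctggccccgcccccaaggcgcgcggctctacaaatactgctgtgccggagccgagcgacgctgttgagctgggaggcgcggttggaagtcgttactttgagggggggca
Smad6: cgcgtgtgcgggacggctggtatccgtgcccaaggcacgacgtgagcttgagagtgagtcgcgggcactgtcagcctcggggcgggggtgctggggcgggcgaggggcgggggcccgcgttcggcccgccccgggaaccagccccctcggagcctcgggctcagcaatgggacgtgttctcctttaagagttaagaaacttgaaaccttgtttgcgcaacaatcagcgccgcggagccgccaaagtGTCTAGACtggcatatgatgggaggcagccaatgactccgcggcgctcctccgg
GGCGCC began 231 bases before the start of Id2 and 148 bases before that of Id4, and was not found in these windows of Id3 and Smad6. It occurred in 11.9% of the 32851 promoter windows in the table. Id3 had 3 GTCT or AGAC matches, Id2 had 1 and Id4 had 0. A match of this short motif was present in 88.0% of all windows. In Smad6 the window held GTCTAGAC, a palindrome made of both orientations, which began 4 bases before the start. This 8-letter form, searched for after the Smad6 window had been seen, occurred in 0.213% of all windows. Of the other windows, Bmpr1a held GGCGCC 198 bases before its start and Bmp4 held none.

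Per kilobase of exon, Id3 was the most abundant of the 9 genes, with a median of 71.4 CPM per kilobase (RPKM) over the 10 libraries (range 32.6 to 111.6). Bmpr1a followed at 35.8 RPKM, Bmp7 at 25.1, Id1 at 14.1 and Id2 at 11.6. Far below them lay Id4 at 1.34 RPKM, Smad7 at 0.374, Smad6 at 0.162 and Bmp4 at 0.109. The order between neighbours was not the same in every library. Id3 exceeded Bmpr1a in 8 of 10 libraries, Bmpr1a exceeded Bmp7 in 8, Bmp7 exceeded Id1 in 9 and Id1 exceeded Id2 in 9. Id4 exceeded Smad7 in 7 and Smad6 exceeded Bmp4 in 7, whereas Id2 lay above Id4, and Smad7 above Smad6, in all 10. Bmp4 rested on 0 to 23 counts per library and Smad6 on 4 to 27, so their values carry large counting error.

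The genes also differed in how much they varied between cultures. Bmpr1a was the steadiest: its highest library was 1.3 times its lowest on the CPM scale, and only 5.35% of the 822 genes of similar level had a smaller SD of log2 CPM. Id4 had the highest SD of log2 CPM, 1.57 with a prior count of 2, and a 30.3-fold range, and 97.2% of 1079 genes of similar level varied less. Bmp4, with 0 counts in 1 library and thus no finite range, had an SD of 1.34. For Id3, which spanned 3.43-fold, that share was 96.7% of 1853 genes. It was 91.2% for Id1 (3.44-fold), 91.6% for Bmp7 (2.91-fold) and 78.6% for Id2 (2.38-fold). Smad6 and Smad7 varied about as much as other genes of their level, with 55.6% and 57.6% varying less, and for Bmp4 the share was 91%. Because these are bulk cultures, fewer cells of a type and less RNA per cell cannot be told apart in any of these levels.

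**Figure D1:**
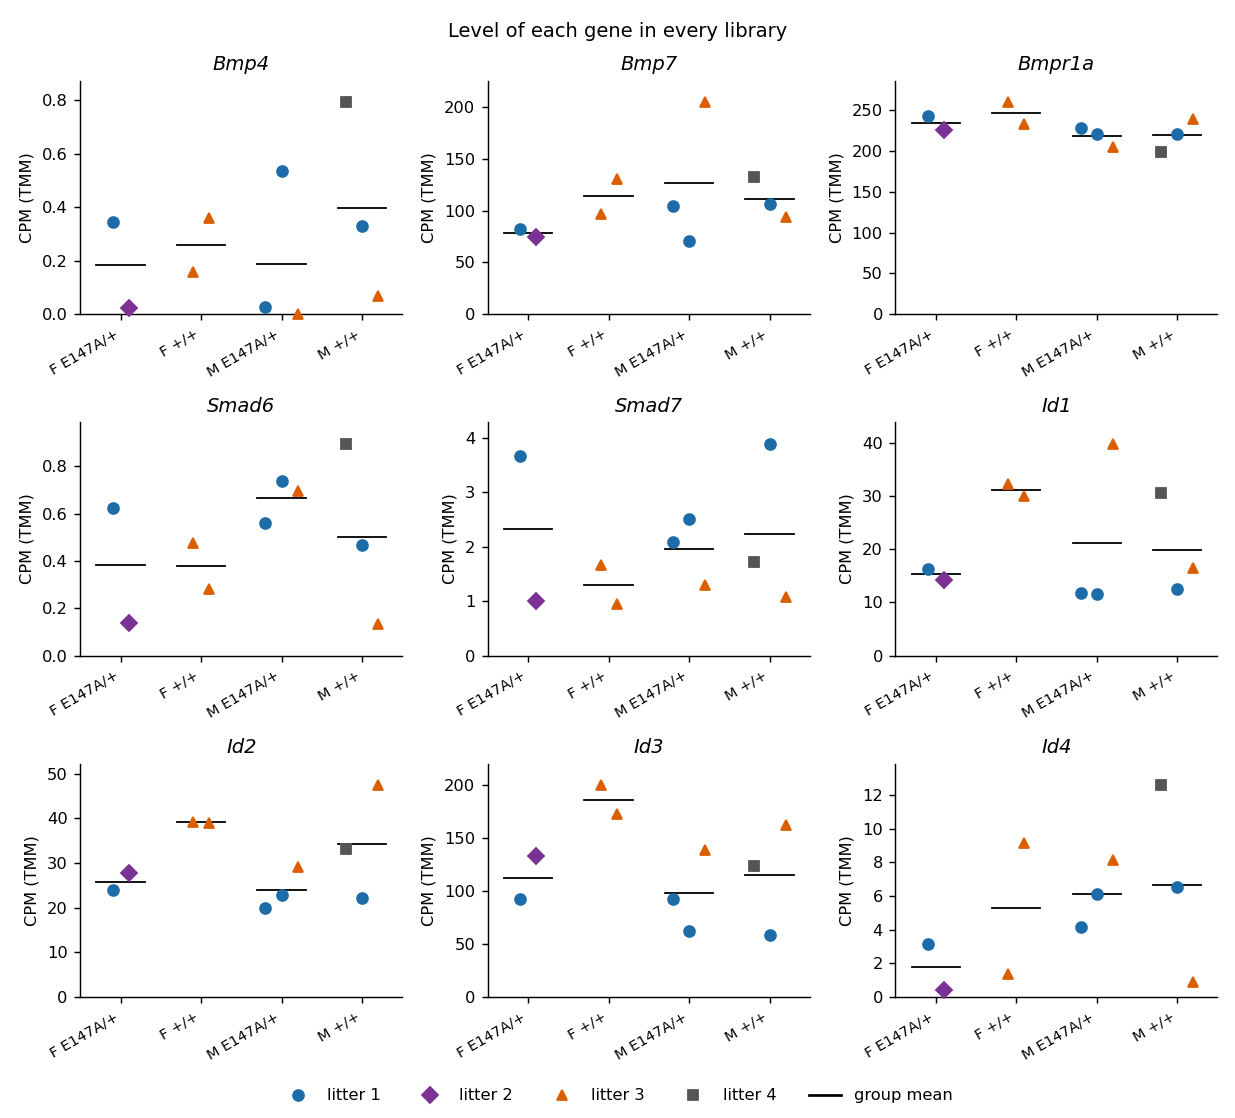
CPM of each of the 9 genes (y axis, TMM-normalised; scales differ between panels) in every library of the 4 groups (x axis; F female, M male). Each point is 1 culture, marked by litter, and each black line is a group mean; Id1, Id2 and Id3 lie higher in litter 3 than in litter 1, while Bmpr1a stays between 199.3 and 259.9 CPM throughout.

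Among the ligands, Bmp7 was well expressed and Bmp4 was barely detected. Bmp7, which binds type I BMP receptors, was measured at 82.7 and 75.0 CPM in female E147A/+, and at 97.0 and 131 in female +/+. In males it was 104, 70.5 and 205 CPM in E147A/+, and 133, 106.3 and 94.2 in +/+. The 205 CPM of male E147A/+ 3 was the highest value, and the genotypes overlapped. Bmp4, a ligand of the dorsal telencephalon, reached 0.793 CPM at most, in male +/+ 1, and had 0 counts in male E147A/+ 3, against 0.346 in female E147A/+ 1.

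Bmpr1a, one of several type I BMP receptors, was nearly level across the study. It lay at 242.9 and 226.4 CPM in female E147A/+ and at 259.9 and 233 in female +/+. In male E147A/+ it was 228, 221 and 205.2 CPM, and in male +/+ it was 199.3, 220.5 and 239.9. Its group means ran from 218 ± 11.6 CPM (SD, n = 3) in male E147A/+ to 246 ± 19.0 (n = 2) in female +/+.

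Smad7, which blocks activated receptors and recruits ubiquitin ligases to them, was low. Female E147A/+ cultures had 3.67 and 0.994 CPM, and female +/+ cultures had 1.66 and 0.9504. Male E147A/+ cultures had 2.09, 2.51 and 1.296 CPM, and male +/+ cultures had 1.72, 3.90 and 1.08. The 4 highest values, from 2.09 CPM upwards, were the 4 libraries of litter 1, in both genotypes and both sexes. Smad6, which competes for activated Smad1, ranged from 0.135 CPM in male +/+ 3 to 0.897 in male +/+ 1.

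Id1, a target with a well-studied BMP-responsive enhancer, was 16.3 and 14.3 CPM in female E147A/+ and 32.2 and 29.98 in female +/+. In males it was 11.8, 11.6 and 39.8 CPM in E147A/+ and 30.5, 12.4 and 16.4 in +/+. The females separated by genotype, and thereby also by litter, while the male genotypes overlapped and their highest value was a mutant of litter 3. Id2 was 23.9 and 27.7 CPM in female E147A/+ and 39.1 and 39.0 in female +/+. In males Id2 was 20.0, 22.9 and 29.1 CPM in E147A/+ and 33.1, 22.1 and 47.5 in +/+. All Id2 values under 30 CPM came from E147A/+ cultures except that of male +/+ 2, the only +/+ culture of litter 1.

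Id3 was 92.6 and 132.6 CPM in female E147A/+ and 199.9 and 172.5 in female +/+. In male E147A/+ it was 92.6, 62.0 and 138.6 CPM, and in male +/+ it was 123.1, 58.4 and 162.6. The lowest and the second-lowest Id3 value belonged to a +/+ and an E147A/+ culture of the same litter. Id4, known for its role in the timing of cortical neurogenesis, was 3.17 and 0.416 CPM in female E147A/+ and 1.37 and 9.15 in female +/+. In males Id4 was 4.15, 6.13 and 8.11 CPM in E147A/+ and 12.6, 6.53 and 0.878 in +/+. Its 3 lowest libraries came from 2 litters and both genotypes, so neither label ordered it.

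The main comparison of the study asked whether the E147A mutation changed expression. None of the 9 genes was called different between E147A/+ and +/+ over both sexes (edgeR quasi-likelihood F test, Benjamini-Hochberg adjusted p under 0.05). All 9 had passed the filter on low counts. Of the 17110 genes tested, 14 were called (0.0818%), 8 higher and 6 lower in E147A/+, and 1010 had an unadjusted p under 0.05. For each of the 9 genes the 5 E147A/+ and the 5 +/+ libraries overlapped, as they did for nearly all genes: 1.44% of the 17110 did not overlap. The median log2 fold change was -0.47 over the 9 genes and -0.01 over all genes tested, with 7 of 9 lower in E147A/+. Of 8 oligodendrocyte lineage markers, Gpr17 alone was called between genotypes (adjusted p = 0.0249, edgeR). It lay at 0.0 to 0.134 CPM in E147A/+ and 0.955 to 4.62 in +/+. The summed level of that list overlapped, at 1359 to 2019 and 1867 to 2043 CPM. The part of cell types in the genotype estimates was not tested.

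All 4 Id genes had a negative estimate. Id2 had the smallest p: its log2 fold change was -0.56 (SE 0.21, 95% interval -1.03 to -0.08), with an edgeR p of 0.0257 unadjusted and an adjusted p of 0.786. For Id1 it was -0.47 (SE 0.39) with an adjusted p of 0.83, and for Id3 -0.48 (SE 0.30) with 0.824 in the same test. Id4 had the widest interval of the Id genes, -2.56 to 0.89, around -0.84. These intervals include a fall by more than 1 on the log2 scale for each Id gene, so such a change was not excluded by these cultures. Bmpr1a had the narrowest, with -0.04 (SE 0.11, 95% interval -0.28 to 0.20). Bmp7 stood at -0.17 (SE 0.27), Bmp4 at -0.80 (SE 1.06), Smad6 at 0.21 (SE 0.58) and Smad7 at 0.33 (SE 0.49), and none of these 4 passed the threshold.

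The direction of several estimates changed when litter was entered as a covariate. Female E147A/+ 2 and male +/+ 1 were alone in their litters, so a fit with litter terms matches them exactly. Its estimates therefore rest on the libraries of litters 1 and 3. With litter as a covariate in the same edgeR fit, the log2 fold change of E147A/+ against +/+ became 0.38 for Id1, 0.12 for Id3, 0.24 for Bmp7 and -0.05 for Smad7, and 3 genes in all were called. Id2 shrank to -0.16 (unadjusted p = 0.504, edgeR) and Id4 to -0.20, while Bmp4 moved to -1.81 and Smad6 to 0.68, and none of the 9 passed the threshold. Within litter 1 alone, mean Id1 was 13.2 CPM in the 3 E147A/+ cultures and 12.4 in the 1 +/+ culture, and mean Id3 was 82.4 against 58.4. Within litter 3, Id1 was 39.8 CPM in the 1 E147A/+ culture and 26.2 as the mean of 3 +/+ cultures. Id3 was 138.6 there against 178.3, and Id2 was 29.1 against 41.9. Mean Id2 in litter 1 was 22.3 CPM in E147A/+ and 22.1 in +/+. The within-litter differences of Id1 were therefore positive in both litters, and those of Id3 had opposite signs. Without a single library the sign over both sexes also turned for Smad7 and Smad6 (-0.27 and -0.50 without female E147A/+ 1), for Smad6 without male +/+ 3 (-0.02), for Id4 (0.13 without female +/+ 2) and for Bmpr1a (0.00 without female E147A/+ 2 and 0.01 without female +/+ 1).

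By sex, 0 of the 9 genes were called in females, where 2 of 17110 genes were (0.0117%), and 0 in males, where 4 were (0.0234%). At an unadjusted p under 0.05 there were 746 genes in females and 589 in males, and none of the 9 was among them in either sex. With only the 4 female libraries in the edgeR fit, 4 of the 9 had an unadjusted p under 0.05, among them Id1 (0.00312), Id3 (0.016) and Id2 (0.0199), beside 1569 of 16654 genes. In limma-voom with quality weights it was 2 of the 9, Id1 and Id2, beside 1345 of 17110 genes. Neither fit called any of the 9 after adjustment. In females the log2 fold change was -1.03 (SE 0.60) for Id1, -0.60 (SE 0.33) for Id2, -0.73 (SE 0.46) for Id3 and -1.56 (SE 1.22) for Id4. In males the corresponding values were 0.09 (SE 0.49), -0.51 (SE 0.27), -0.23 (SE 0.38) and -0.12 (SE 0.97). The difference between the sexes was tested as an interaction, and 0 of the 9 genes passed, as did 0 of 17110 genes (0.0% called, with 314 at an unadjusted p under 0.05 in edgeR). In females, where no litter held both genotypes, the litter covariate takes its litter differences from the males. It turned the estimate of Id1 to 0.28, that of Id2 to 0.02 and that of Id3 to 0.11.

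**Figure D2:**
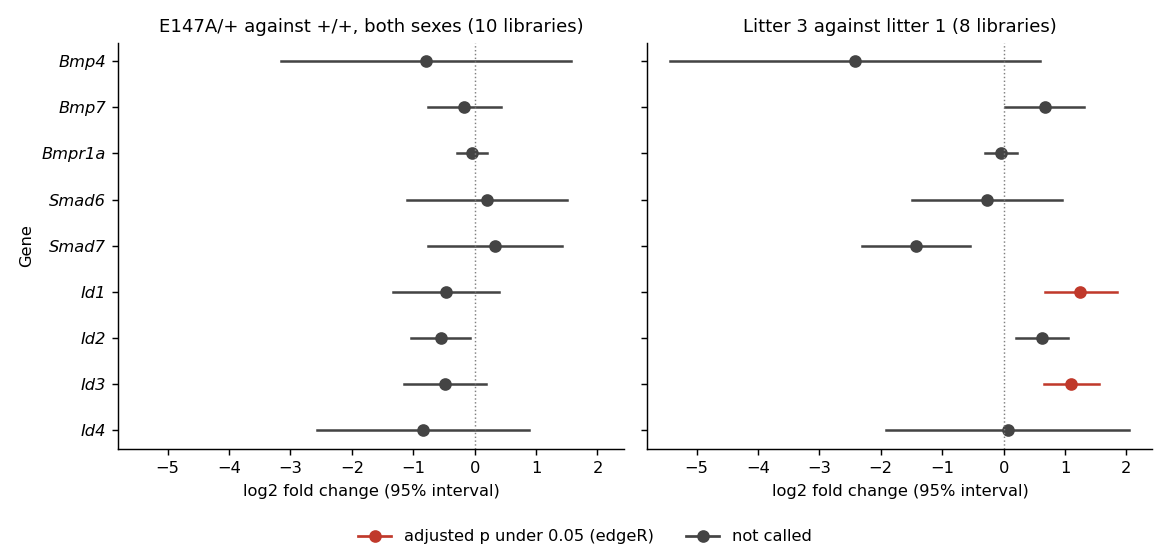
Log2 fold change (x axis) of each gene (y axis) for E147A/+ against +/+ over both sexes in 10 libraries (left) and for litter 3 against litter 1 in 8 libraries (right). Points are edgeR estimates and bars are 95% intervals; red marks an adjusted p under 0.05, which Id1 (1.25) and Id3 (1.11) have on the right and none has on the left.

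Cultures of litter 3 had more Id1 and Id3 RNA than cultures of litter 1. Mean Id1 was 29.6 ± 9.75 CPM (SD, n = 4) in litter 3 and 13.01 ± 2.20 (n = 4) in litter 1, and mean Id3 was 168 ± 25.4 against 76.4 ± 18.8. In a fit on these 8 libraries with sex and genotype as further terms, the log2 difference of litter 3 minus litter 1 was 1.25 for Id1 (SE 0.25, adjusted p = 0.0428, edgeR) and 1.11 for Id3 (SE 0.19, adjusted p = 0.0302, edgeR). These 2 were the called members among 9, where 645 of 15980 genes were called (4.04%), 200 higher and 445 lower in litter 3. As each culture came from its own embryo, these p-values measure the spread between embryos, but the labels do not say whether the cultures of a litter were also dissected, grown or sequenced together, and litter cannot be told apart from such shared handling.

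Id2 differed in the same direction without passing the threshold, with 38.7 ± 7.50 CPM (n = 4) in litter 3, 22.2 ± 1.68 in litter 1, a log2 difference of 0.63 (SE 0.18) and an adjusted p of 0.0943 in edgeR. Smad7 had the opposite sign, with 1.25 ± 0.309 CPM in litter 3 against 3.04 ± 0.879 in litter 1, a log2 difference of -1.43 (SE 0.38) and an adjusted p of 0.0788 in edgeR. Bmp7 was at 0.67 (SE 0.27, adjusted p = 0.196, edgeR), and was 131.8 ± 51.6 CPM in litter 3 and 90.9 ± 17.3 in litter 1. Id4, unlike the other Id genes, overlapped widely, with a log2 difference of 0.07 (SE 0.85). Bmpr1a was at -0.05 (SE 0.11), Smad6 at -0.27 (SE 0.53) and Bmp4 at -2.42 (SE 1.29), and none of these 3 passed either.

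The libraries of litters 1 and 3 did not overlap in CPM for 4 of the 9 genes (44.4%), against 21.6% of the 15980 genes tested. These CPM were not adjusted for genotype or sex. Litter 1 held 3 E147A/+ cultures and 1 +/+ culture, and litter 3 held 1 and 3. Id1, Id2 and Id3 were higher in litter 3 and Smad7 was lower. For Id1 the gap was narrow, between 16.3 CPM in female E147A/+ 1 of litter 1 and 16.4 in male +/+ 3 of litter 3. For Id3 it lay between 92.6 and 138.6 CPM, for Id2 between 23.9 and 29.1, and for Smad7 between 1.66 and 2.09. The single culture of litter 4, with 30.5 CPM of Id1, 33.1 of Id2 and 123.1 of Id3, was above every litter 1 culture in all 3 genes. The single culture of litter 2 lay within the litter 1 range for Id1 at 14.3 CPM and above it for Id2 at 27.7 and for Id3 at 132.6.

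The litter calls of Id1 and Id3 depended on single libraries, although neither estimate changed sign. Id1 ranged from 0.55 to 1.84 and Id3 from 0.84 to 1.45 on the log2 scale when each library was left out in turn. The edgeR adjusted p of Id1 stayed under the threshold without male +/+ 2 (0.0482) and without male +/+ 3 (0.0124). It was 0.156 without female E147A/+ 1, 0.0743 without female +/+ 1, 0.0552 without female +/+ 2, 0.115 without male E147A/+ 1, 0.123 without male E147A/+ 2 and 0.408 without male E147A/+ 3. The last of these gave the lowest estimate of Id1, and male E147A/+ 3 was also the library with its highest level, 39.8 CPM. For Id3 the edgeR adjusted p stayed under the threshold without female +/+ 2 (0.0428) and without male +/+ 3 (0.0266). It was 0.109 without female E147A/+ 1, 0.0554 without female +/+ 1, 0.0513 without male E147A/+ 1, 0.0904 without male E147A/+ 2, 0.181 without male E147A/+ 3 and 0.103 without male +/+ 2. Among males alone the differences were 1.22 for Id1 (adjusted p = 0.19, edgeR) and 1.12 for Id3 (adjusted p = 0.152, edgeR), and 0 genes in all were called there, with 2982 at an unadjusted p under 0.05. DESeq2, on the same 8 libraries, called 2075 of 15980 genes (13.0%) and 4 of the 9, adding Id2 (adjusted p = 0.0178, DESeq2) and Smad7 (adjusted p = 0.0208, DESeq2). Without a filter on low counts edgeR also called 4, adding Bmp7 (adjusted p = 0.00302, edgeR) and Smad7 (adjusted p = 0.0238, edgeR), while 2113 of 27749 genes were called (7.61%).

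Of all 41 marker genes tested between litters 2 were called, a share near the 4.04% over all genes. The summed levels of 2 of the 8 marker lists did not overlap between the litters and those of the other 6 did. The 21.6% of all genes without overlap counts single genes, so it is no measure for sums over lists. The summed level of 6 mesenchymal or meningeal markers was 5.12 to 10.97 CPM in litter 1 and 11.9 to 29.8 in litter 3, and that of 6 endothelial markers was 0.770 to 2.47 in litter 1 and 3.26 to 4.15 in litter 3. Of the mesenchymal or meningeal list, 4 of 6 genes were tested between litters and 1 was called, the collagen gene Col3a1, at 0.516 to 1.26 CPM in litter 1 and 4.14 to 15.8 in litter 3 (log2 difference 3.35, adjusted p = 0.0288, edgeR). Col1a2 (1.25), Pdgfrb (1.42) and Col1a1 (0.68) were not called. Of the endothelial list, Cdh5, Flt1 and Tek stayed under 1 CPM in every library, while Pecam1, Kdr and Cldn5 reached 1.66, 1.45 and 1.82, and none of the 3 was called. The summed level of 8 astrocyte markers overlapped, at 1604 to 2327 CPM in litter 1 and 1312 to 1844 in litter 3. That of 9 neural stem cell markers overlapped too, at 4329 to 5406 CPM and 3972 to 5960. The part of these cell types in the Id1 and Id3 difference was not tested.

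Of the other pathway genes, 81 were listed, and the 62 that passed the filter gave 0 calls for the genotype over both sexes, in females, in males or for the interaction in edgeR. Over both sexes 31 were higher and 31 lower, with a median log2 fold change of 0. The lowest p-values among receptors belonged to the co-receptor Rgmb (0.55, SE 0.18, adjusted p = 0.728, edgeR) and the endothelial co-receptor Eng (0.66, SE 0.22, adjusted p = 0.737, edgeR). Tgfbr1 came next, at -0.28 (SE 0.14). Among further targets, Hey1 was at -0.52 (SE 0.21, adjusted p = 0.814, edgeR), Hes1 at 0.63 (SE 0.28) and Hes5 at -1.13 (SE 0.55), all without a call. Among secreted inhibitors, Bmper was at -0.71 (SE 0.34), Chrdl1 at -0.91 (SE 0.44) and Fstl1 at 0.50 (SE 0.24), and none passed. The signal transducers Smad9, Smad5 and Smad1 differed by -0.29 (SE 0.32), 0.10 (SE 0.19) and 0.05 (SE 0.11) between genotypes, again without a call. Neurog2, a proneural bHLH factor of 0 to 6.76 CPM, was at -2.25 (SE 1.25), also without a call. Smad1 lay between 40.0 and 47.8 CPM in all 10 libraries, so this transducer, like the receptor, was expressed throughout.

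Between litters, 61 of the listed genes were tested, of which 1 was called higher and 2 lower in litter 3, a share near the 4.04% over all genes. All 3 were listed as further targets: Hes1 and Hes5, transcriptional repressors best known as Notch targets, and Junb, an AP-1 subunit. Hes1 had a log2 difference of -1.17 (SE 0.13, adjusted p = 0.0121, edgeR), with 50.6 to 55.7 CPM in litter 1 and 22.6 to 28.9 in litter 3. Hes5, also one of the neural stem cell markers, had -1.69 (SE 0.33, adjusted p = 0.0413, edgeR), although its litters overlapped, at 6.60 to 20.6 CPM in litter 1 and 2.66 to 16.4 in litter 3. Junb, named because it was the only one called higher and thus after its values were seen, had 2.05 (SE 0.22, adjusted p = 0.0121, edgeR), with 4.37 to 11.2 CPM in litter 1 and 23.4 to 32.0 in litter 3. Of the bHLH factors listed as partners of Id proteins, 9 were tested and 0 were called, and Tcf12, an E protein that Id proteins capture, stood at 0.30 (SE 0.16).

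Across the 10 cultures, Id2 and Id3 had the strongest correlation of the 36 gene pairs, and no pair passed adjustment over all 36. Pearson's r of log2 CPM was 0.84 for Id2 and Id3 (permutation p = 0.00298, adjusted 0.107; Spearman's rho 0.855, p = 0.00287, adjusted 0.0916), and 0.92 without the 2 libraries farthest from the median of Id2. In all, 6 pairs had an unadjusted permutation p under 0.05. Smad7 ran against Id3, with an r of -0.80 (permutation p = 0.00635, adjusted 0.114; rho -0.83, p = 0.00509, adjusted 0.0916; r without the 2 farthest libraries -0.73). It ran against Id2 with an r of -0.70 (permutation p = 0.0283, adjusted 0.17; rho -0.69, p = 0.0353, adjusted 0.212; r without the 2 farthest libraries -0.63). Id1 and Id3 had an r of 0.72 (permutation p = 0.023, adjusted 0.166; rho 0.73, p = 0.0205, adjusted 0.147; r without the 2 farthest libraries 0.67).

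Bmp7 tracked Id1 with an r of 0.75 (permutation p = 0.00951, adjusted 0.114; rho 0.62, p = 0.0588, adjusted 0.273), which was 0.54 without the 2 farthest libraries. The relation of Smad6 and Id4, with an r of 0.76 (permutation p = 0.0131, adjusted 0.118; rho 0.58, p = 0.0883, adjusted 0.353), rested on 2 libraries, as r was 0.18 without them. Id4 had negative coefficients with both Id2 (-0.26) and Id3 (-0.34), where the other 3 Id genes had positive ones among themselves.

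The correlations among Id1, Id2, Id3 and Smad7 were weaker or of the other sign within litters. When values of litters 1 and 3 were centred on the litter mean (8 libraries), r fell from 0.84 to 0.20 for Id2 and Id3, from 0.72 to 0.10 for Id1 and Id3, and from -0.80 to -0.08 for Smad7 and Id3. For Id1 and Id2 it turned from 0.60 to -0.69. Bmp7 and Id1 had 0.55 within litters. The strongest coefficients within litters belonged to pairs that were weakly related over all 10 libraries, Bmp7 and Id2 (-0.87 against 0.22) and Smad6 and Id1 (0.85 against 0.20). Centring on the group mean instead of the litter left r of Id2 and Id3 at 0.86 and that of Smad7 and Id3 at -0.81. The coefficients within litters describe 8 libraries and carry no test. They differ from those over all 10 libraries both by the centring and by the absence of litters 2 and 4. The part of each in the change was not tested.

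**Figure D3:**
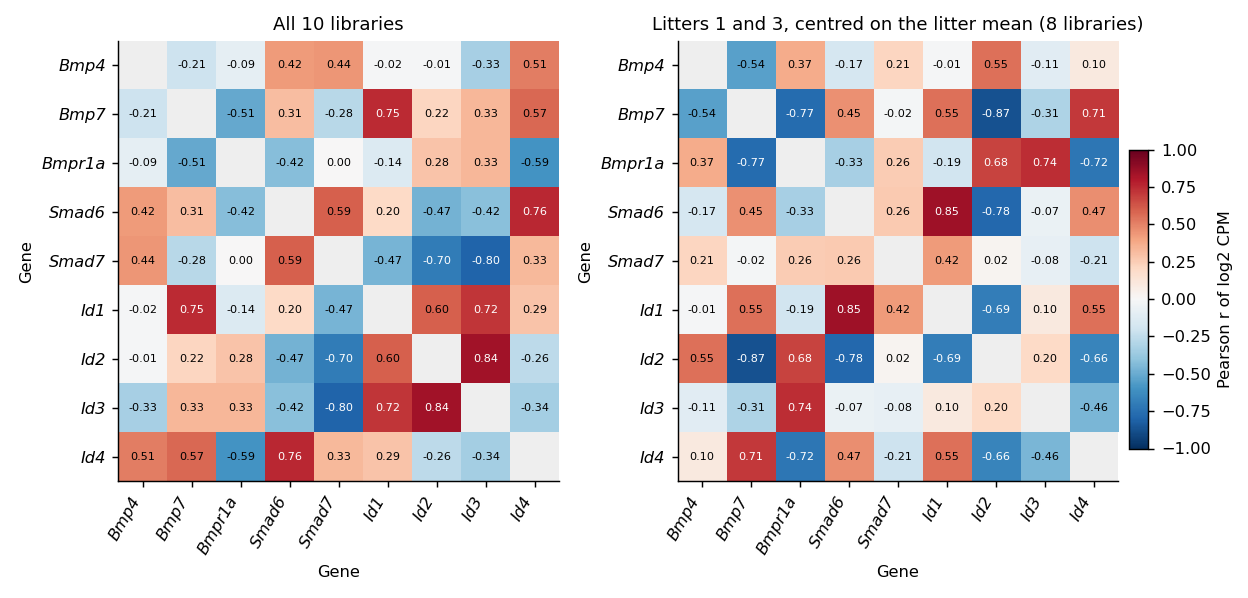
Pearson's r of log2 CPM for each pair of the 9 genes, over all 10 libraries (left) and over the 8 libraries of litters 1 and 3 after subtraction of the litter mean (right); both axes list genes and the colour scale runs from -1 to 1. The positive block of Id1, Id2 and Id3 on the left (0.60, 0.72 and 0.84) is not present on the right (-0.69, 0.10 and 0.20).

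The pattern of Id1 and Id3 across cultures was shared by many genes. With the mean of their standardised log2 CPM over the 10 libraries, 385 of the 10413 genes whose mean log2 CPM reached 3 had an r above 0.8, given as a description. The closest were Tspan15, a tetraspanin, with an r of 0.988, Abhd17a, a depalmitoylase, with 0.977, and Slc20a2, a phosphate transporter, with 0.971. Fbxw8, an F-box protein, and Dynlt1-ps1, a processed pseudogene, both had 0.963. Tspan15 lay at 8.81 to 11.99 CPM in litter 1 and at 15.3 to 25.7 in litter 3. Dynlt1-ps1 shares sequence with its parent genes, so its counts are uncertain.

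In the 4 females, counts assigned to the 129 or the Cast allele were available for each gene. By the cross the Cast copy was paternal, yet whole regions around several of these genes had almost no Cast counts in some libraries. A share near 0 in such a region therefore says nothing about the activity of the paternal copy of a gene, and each share is set beside its neighbours'. For Id1, 63 of 126 allelic counts in female E147A/+ 1 were Cast (95% Wilson interval 41.4% to 58.6%), and the Cast share was 54.7% of 179 (47.4 to 61.9) in female +/+ 1. It was 0.719% of 139 (0.127 to 3.96) in female E147A/+ 2 and 0.459% of 218 (0.081 to 2.55) in female +/+ 2. These intervals cover counting error only.

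The Id1 shares followed the surrounding chromosome 2 region. The median Cast share of its neighbours within 5 Mb was 49.4% and 50.8% in the libraries with a balanced Id1, and 1.47% and 3.13% in the other pair. The libraries with a balanced Id1 had 16.3 CPM (E147A/+) and 32.2 CPM (+/+), and those with almost only 129 counts had 14.3 (E147A/+) and 29.98 (+/+). Bmp7, on the same chromosome, had Cast shares of 69.8% (67.7 to 71.8) and 70.6% (68.4 to 72.7) in female E147A/+ 1 and female +/+ 1. In female E147A/+ 2 and female +/+ 2 its shares were 14.3% (12.7 to 16.1) and 12.3% (11.1 to 13.6), while its neighbours were at 3.30% and 3.61%. In all 4 libraries the Bmp7 share was thus above the median of its neighbours, which was 47.1% and 46.3% in the first pair. As Bmp7 had Cast counts even where its region had almost none, its shares may not give the expression of each allele. This holds for the first pair too, and the reason was not tested.

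Id2 had counts from both alleles in 3 females, with Cast shares of 44.2% (39.2 to 49.3) in female E147A/+ 1, 40.4% (35.8 to 45.2) in female +/+ 1 and 41.1% (37.0 to 45.3) in female +/+ 2. In female E147A/+ 2 the share was 0.236% of 423 counts (0.0417 to 1.33), and its neighbours were at 0.0411%, so the region as a whole had almost no Cast counts there. In the other 3 libraries the neighbours were at 51.6%, 48.5% and 49.7%, above the interval of Id2 in each. That library had 27.7 CPM of Id2, between the 23.9 of the other mutant female and the 39.0 of female +/+ 2.

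Bmpr1a and Id3 did not follow their neighbours. The Cast share of Bmpr1a was 41.8%, 43.6%, 43.3% and 47.1% in female E147A/+ 1 and 2 and female +/+ 1 and 2, on 2214 to 2913 allelic counts, whereas the median of its neighbours was 0.235%, 49.1%, 1.63% and 48.1%. The Cast share of Id3 was 55.8%, 55.9%, 47.1% and 37.3% on 43 to 87 counts, against 49.4%, 2.17%, 3.84% and 2.04% for its neighbours. Why counts of both alleles were assigned to a gene in a region with almost no Cast counts was not tested. Id4 had 0 Cast counts of 55 in female +/+ 2 (95% Wilson upper limit 6.53%; a floor of 3 counts would be 5.45%) and 0 of 30 in female E147A/+ 1 (upper limit 11.4%; floor 10%). Its neighbours there were at 0.331% and 0.0864%. In female +/+ 1, 6 of 12 Id4 counts were Cast (95% Wilson interval 25.4 to 74.6) and the neighbours were at 48.8%, and female E147A/+ 2 had 3 allelic counts. Smad7 had Cast shares of 9.09% of 22 counts (2.53 to 27.8) in female E147A/+ 1, 0 of 14 (upper limit 21.5%; floor 21.4%) in female +/+ 1 and 9.09% of 11 (1.62 to 37.7) in female +/+ 2, beside neighbours at 3.33%, 6.48% and 3.43%. Bmp4 and Smad6 had under 10 allelic counts in every female.

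**Figure D4:**
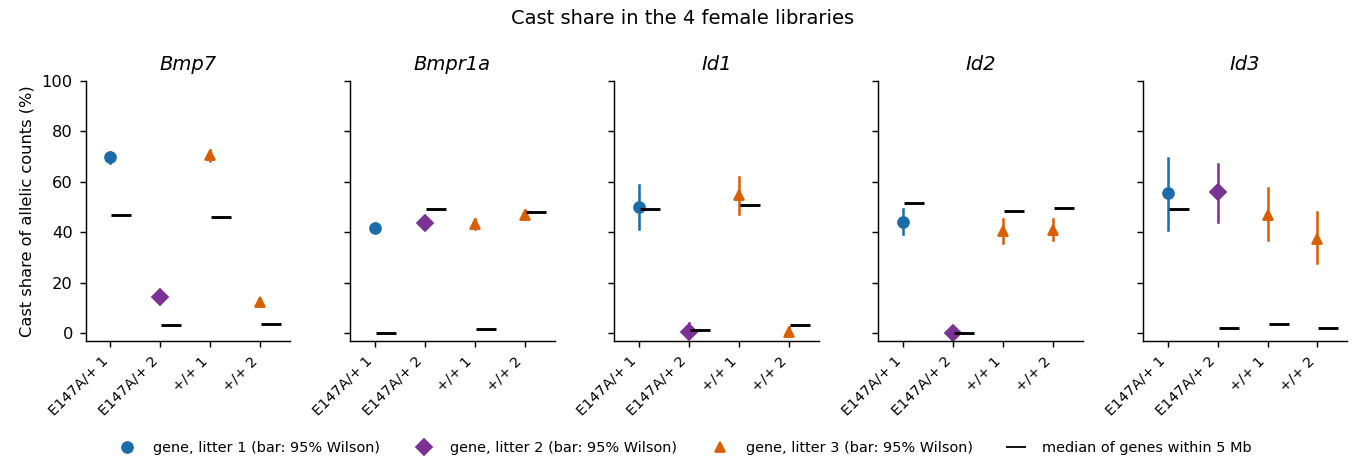
Cast share of allelic counts in percent (y axis) in the 4 female libraries (x axis) for the 5 genes that had 10 or more allelic counts in each of them; symbols mark the litter, vertical bars are 95% Wilson intervals and black dashes are the median share of genes within 5 Mb. Id1 lies near its dashes, Id2 lies below them in the 3 libraries with both alleles, Bmp7 lies above them in each library, and Bmpr1a stays between 41.8% and 47.1% whatever its neighbours show.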

How the data were processed

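Poly(A) RNA of 10 cultures was measured by stranded RNA-seq. The authors deposited raw counts per gene, and, for the 4 females, counts per 129 and Cast allele. The submitters' processing notes name Trim Galore 0.4.4, HISAT2 2.0.5, featureCounts, edgeR 3.24.0 and R 3.5.1, and the builds GRCm38 and mm10, without the role of each. How strand was used in counting, and how reads were assigned to alleles, is not given in the sources used here. Genes that overlap on opposite strands are therefore uncertain. Gene coordinates in the deposited table matched GENCODE M21 (GRCm38) for these genes.

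The 9 genes, the pathway and marker lists, the tests and the alternatives were chosen with earlier results of these data known. Libraries were grouped by the sex and genotype in their labels. Counts were analysed in R 4.3.3 with edgeR 4.0.16: filterByExpr (17110 genes; 15980 for litters 1 and 3), TMM, a quasi-likelihood F test over all genes with 1 mean per group (6 residual degrees of freedom), and Benjamini-Hochberg adjustment at 0.05. The litter fit had sex and genotype as terms (4 residual degrees of freedom). An SE was taken as the size of the log2 fold change over the square root of F, and 95% intervals use edgeR's total degrees of freedom. The script was tested on simulated data.

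RPKM divides CPM by the GENCODE exon length. Correlations used log2 CPM with a prior count of 2, and two-sided permutation tests with 100000 resamples, adjusted over 36 pairs. Allelic shares needed at least 10 counts, and neighbours within 5 Mb at least 30. Named genes were the 9, the 5 nearest patterns and up to 3 pathway genes per role by lowest p over both sexes, with exceptions stated where they stand. Alternatives were size factors from DESeq2's method, DESeq2 1.42.0, no filter, limma 3.58.1 voom with quality weights, a litter covariate, 10 counts in every library, a replicate block, only the groups compared, litter alone, males only, a prior count of 0.5, and leaving out each library.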

Additional observations from a re-analysis of the deposited data

How the results depend on the processing

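No alternative called any of the 9 genes for the genotype over both sexes, in females, in males or for the interaction. The genes called among all tested moved as follows. Over both sexes, against 14, DESeq2 called 113, voom 29, no filter 33, 10 counts in every library 9, the litter covariate 3, and leaving out 1 library 2 to 12. In females, against 2, these were 46 with DESeq2, 8 without a filter, 1 with only the groups compared, 0 with the litter covariate (edgeR; 286 at an unadjusted p under 0.05) and 0 to 2 with 1 library left out. In males, against 4, they were 48, 9 with voom, 14 without a filter, 2 with the litter covariate, 1 with only the groups compared and 1 to 4. For the interaction, against 0, DESeq2 called 2, the litter covariate 1, and leaving out 1 library 0 to 1. Between litters, against 645, DESeq2 called 2075, no filter 2113, litter alone 1624, males only 0 and leaving out 1 library 4 to 1358. The litter calls among the 9 genes, against 2, were 4 with DESeq2 and with litter alone (Id2 and Smad7 added), 4 without a filter (Bmp7 and Smad7 added), 0 in males only and 0 to 2 with 1 library left out. Of the 36 correlated pairs, 0 were called with all libraries and 0 to 1 with 1 left out, the 1 being without female +/+ 2. A group left with 1 library was assumed to vary like the others.

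Signs turned with the litter covariate for Bmp7 (0.24), Smad7 (-0.053), Id1 (0.38) and Id3 (0.12) over both sexes, for Id1 (0.28), Id2 (0.021) and Id3 (0.11) in females, and for Id3 (0.13) and Id4 (0.93) in males. In males Id1 was -0.38 with voom. Between litters, Bmpr1a was 0.016 and Id4 -0.038 with litter alone, and Id4 was -0.59 in males only. The correlation of Id1 and Id2 was -0.688 within litters. With 1 library left out, signs also turned in males for Id1 (-0.76 to 0.55), Id3 (-0.57 to 0.11) and Id4 (-0.64 to 0.74), in females for Id4 (-3.66 to 0.39), over both sexes for Bmpr1a (-0.080 to 0.0066), Smad6 (-0.50 to 0.59), Smad7 (-0.27 to 0.68) and Id4 (-1.88 to 0.13), and between litters for Bmp7 (-0.059 to 1.29), Bmpr1a (-0.14 to 0.092), Smad6 (-1.08 to 0.30) and Id4 (-1.53 to 1.03). The cause of these changes was not tested.

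The labels give the numbers no meaning, and the male libraries numbered 2, and those numbered 3, also shared a litter, unlike those numbered 1 or the females. Deviations of same-numbered libraries correlated at -0.304 in females and at -0.238, 0.416 and 0.0341 in males, so not every pair moved together. A replicate block gave 5 calls over both sexes, 0 in females (edgeR; 836 at an unadjusted p under 0.05) and 2 in males, and turned Id1 to -0.067 and Id4 to 0.35 in males. With the female numbers crossed, an alternative added after the data were seen, 6 genes were called over both sexes and 0 in females (edgeR; 1020 at an unadjusted p under 0.05). The depth limits Bmp4 and Smad6, with at most 23 and 27 counts per library.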

Other observations

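The 3 libraries with the least Id4 also had the least Stmn2, and low Dcx, chosen from 6 neuronal markers after the values were seen; the other 4 did not all follow. Stmn2, a microtubule regulator of growing axons, was 0.786 CPM in female E147A/+ 2, 0.255 in female +/+ 1 and 0.169 in male +/+ 3, against 4.69 to 24.9 in the other 7 libraries. Dcx, a microtubule-associated protein of migrating neurons, was 1.39, 1.46 and 5.10 CPM in these libraries, where Id4 was 0.416, 1.37 and 0.878. Dcx was 26.5 CPM in male +/+ 2 and 18.3 in female +/+ 2, where Id4 was 6.53 and 9.15. The library with the most Id4, male +/+ 1 at 12.6 CPM, had 15 of Dcx and 8.45 of Stmn2, less than the 21.1 and 24.9 of male E147A/+ 2, where Id4 was 6.13. Tubb3 was 5.27, 5.57 and 9.25 CPM in the 3 libraries and 7.46 to 30.1 in the others. Snap25 was 4.74, 2.83 and 4.52 CPM, which overlapped the 3.76 to 11.1 of the others. Rbfox3 had its highest value, 8.25 CPM, in female E147A/+ 2, and Map2 had its highest, 982, in male +/+ 3, both among the 3 libraries. The summed level of all 6 neuronal markers, most of which was Map2, was 560.5 to 1001 CPM over the 10 libraries. A marker outside the neuronal list also set these 3 libraries apart. Foxj1, an ependymal marker chosen after the values were seen, was 6.52, 25.2 and 14.9 CPM in them and 2.02 to 4.73 in the others. The rest of its list did not follow. The 3 libraries thus differed in more than neuronal markers. The part of neurons in the variation of Id4 was not tested.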
